A study of Mus musculus with 6 samples.

Results

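The transcripts of 9 genes of iron handling were followed in brown adipose tissue (BAT) of Letmd1 knockout mice: the ferritin subunits Fth1 and Ftl1, the iron carriers Tfrc, Slc11a2 and Slc40a1, the heme synthesis genes Alas1 and Fech, and the iron-sulfur cluster genes Nfs1 and Iscu. The 9 genes were listed by name for their known function, out of 23282 gene rows in each count table, with earlier results of these data known. All 9 passed the filter on low counts that left 12995 genes to be tested. LETMD1 is a mitochondrial protein that is enriched in brown adipocytes, and the comparison asked how BAT transcripts differ when it is missing. Interscapular BAT came from 5-week-old males, 3 of them wild type (WT) and 3 Letmd1 KO, and each mouse gave 1 library. The KO mice carried a knockout-first allele in all cells of the body, with a lacZ and neomycin cassette placed in an intron of Letmd1, so that BAT was not the only tissue without the gene. RNA was measured with QuantSeq, a 3′ end method that reads 1 fragment near the poly(A) tail of each transcript, so counts were not divided by transcript length.

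Iron enters most cells bound to transferrin, is stored in ferritin and leaves through ferroportin. In mitochondria it is put into heme, the iron-porphyrin group of cytochromes, or built with sulfur into iron-sulfur clusters, which the respiratory chain needs. BAT is rich in mitochondria and therefore has a high demand for both cofactors.

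The libraries held between 6669577 and 14574273 counts. The targeted gene followed its labels: Letmd1 had 5658, 6490 and 5266 counts in the WT mice and 0, 0 and 1 in the KO mice, which is at least 1666-fold lower when the KO mice are set to a floor of 3 counts per library. Of the genes tested, 46.0% passed an adjusted p of 0.05 (edgeR quasi-likelihood test, Benjamini-Hochberg over all genes), 22.3% lower and 23.7% higher in KO. Macrophage and brown adipocyte markers moved with genotype, while with all mice most of the muscle and endothelial markers tested did not pass. All 12 tested macrophage markers of 13 listed were higher in KO, and their summed level was between 182 and 257 CPM (counts per megacount of a library, with libraries scaled by the TMM method) in WT mice and between 1500 and 3648 CPM in KO mice. Averaged over all mice, Lgals3, Gpnmb and C1qb were the most abundant of them, with Gpnmb at 1013 CPM in KO replicate 2 against 63.0 and 40.9 CPM in KO replicates 1 and 3, while in WT mice C1qb, Csf1r and C1qa led. Vsig4 was at 0 counts in all WT mice. Brown adipocyte markers, led by Fabp4, Ucp1 and Cidea, summed to between 42299 and 48161 CPM in WT and between 13308 and 16705 CPM in KO, with 9 of 12 lower and none at 0 in any group. Skeletal muscle markers, led by Acta1, Myh4 and Tnnc2, summed to 8.51, 404 and 6.77 CPM in WT replicates 1, 2 and 3. In KO replicates 1, 2 and 3 they summed to 424, 307 and 1232 CPM. Of the 15 tested, 2 were higher in KO with all mice, and all 15 without WT replicate 2, alone or together with KO replicate 3. Without KO replicate 3 alone, none of them passed. Endothelial markers, led by Kdr, Esam and Pecam1, ranged from 614 to 729 CPM in WT and from 461 to 557 CPM in KO, with 3 of 10 lower and 1 higher. In bulk tissue, fewer cells of a type and less RNA per cell cannot be told apart.

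Of the 9 genes, 6 passed the test, beside 46.0% of all genes tested. Slc11a2, Iscu, Fech and Nfs1 were lower in KO BAT, Slc40a1 and Ftl1 were higher, and Fth1, Tfrc and Alas1 did not pass. The genotypes did not overlap for those 6 genes, against 57.3% of all genes tested. The median log2 fold change of the 9 genes was -0.50, beside 0.03 over all genes tested. Scaled by library size alone, 2 of the 9 were lower and 2 higher, while 7262 of all 12995 genes passed. Together the 9 genes took 0.314%, 0.315% and 0.330% of the counts in the WT mice and 0.362%, 0.470% and 0.365% in the KO mice, most of it Fth1 and Ftl1.

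**Figure D1:**
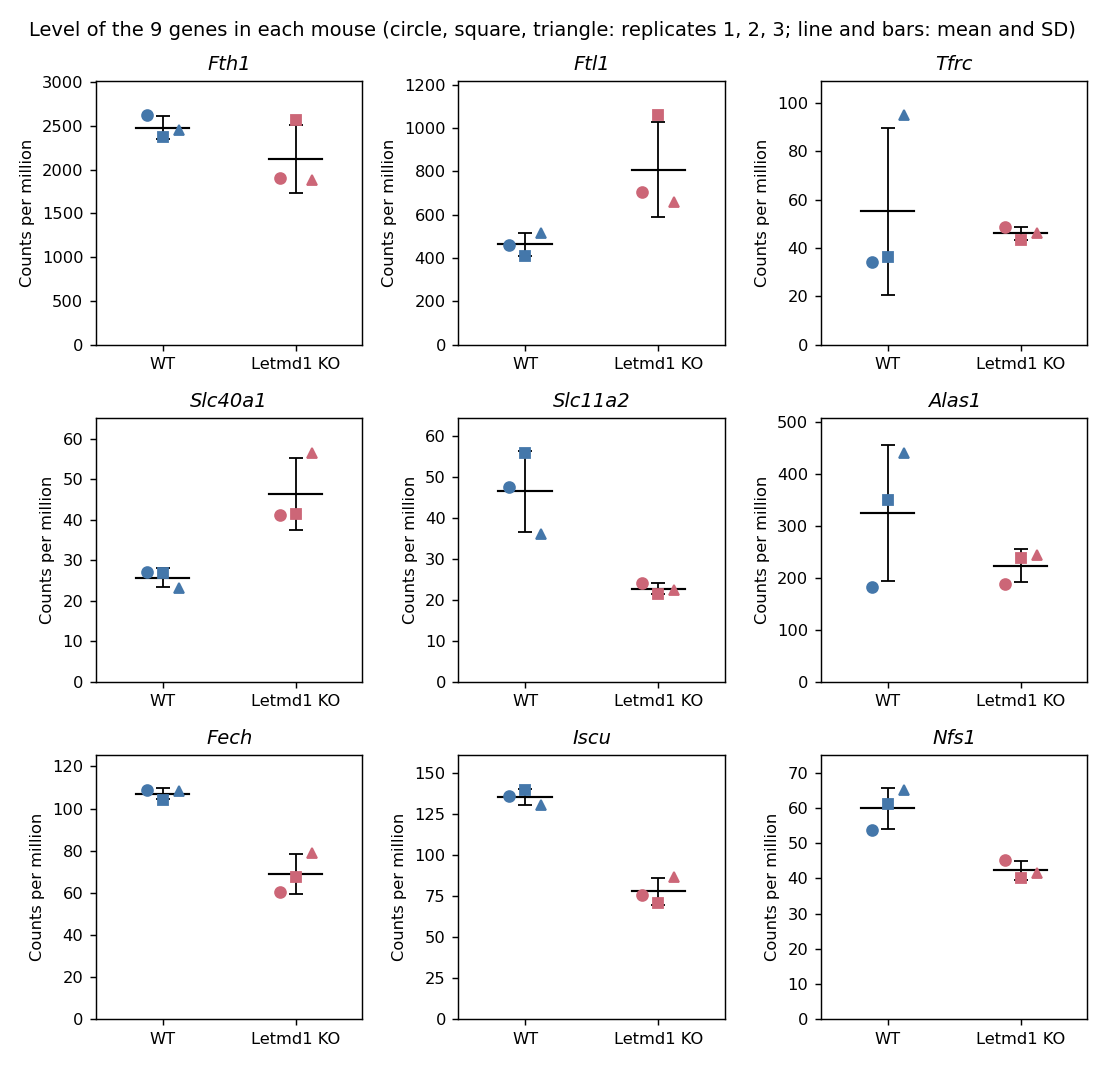
Level in CPM (vertical axis, TMM-scaled, from 0) of each of the 9 genes in the 3 WT and 3 Letmd1 KO mice; symbols mark the replicate, horizontal lines the mean and bars the SD. Slc11a2, Fech, Iscu and Nfs1 sit lower and Ftl1 and Slc40a1 higher in every KO mouse than in any WT mouse, while the mice of both genotypes overlap for Fth1, Tfrc and Alas1.

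Several of these mRNAs are known to carry iron-responsive elements (IREs), hairpins to which iron regulatory proteins bind when iron is low. An IRE in the 5′UTR blocks translation, and those in the 3′UTR of Tfrc protect the mRNA from decay, so only the latter kind acts on the quantity counted here. The elements found in 4 of the 9 genes, those of storage, export and receptor uptake, are shown because they are the sites through which iron is known to act on these mRNAs. A search of 1 coding transcript per gene (GENCODE vM21) used the letters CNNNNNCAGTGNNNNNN on the sense strand, where the base after CAGTG was not G and the 5 bases on either side of the 6-base loop could pair. It matched once in Fth1 (chr19:9982732-9982761, plus strand), Ftl1 (chr7:45459778-45459807, minus strand) and Slc40a1 (chr1:45925464-45925493, minus strand), each in the 5′UTR, and 4 times in the 3′UTR of Tfrc (chr16:32631219-32631248, chr16:32631598-32631627, chr16:32631663-32631692 and chr16:32631710-32631739, plus strand), all on GRCm38, the same build as mm10. Each site is printed 5′ to 3′ as DNA with its loop in capitals.
Fth1 5′UTR: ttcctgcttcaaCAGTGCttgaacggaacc
Ftl1 5′UTR: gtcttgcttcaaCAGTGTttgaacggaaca
Slc40a1 5′UTR: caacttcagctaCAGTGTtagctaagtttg
Tfrc 3′UTR, site 1: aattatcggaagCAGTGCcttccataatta
Tfrc 3′UTR, site 2: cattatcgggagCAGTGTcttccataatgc
Tfrc 3′UTR, site 3: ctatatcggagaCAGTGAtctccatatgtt
Tfrc 3′UTR, site 4: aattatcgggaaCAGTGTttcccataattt

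The same letters were found in 0.901% of 21745 coding transcripts on the sense strand and in 0.722% on the opposite strand. By region, 0.0736% of transcripts held a match in the 5′UTR and 0.382% in the 3′UTR. Of 110 searched genes of the iron, heme and iron-sulfur lists, 6 had a match, Alas2 among them. Slc11a2, Alas1, Fech, Iscu and Nfs1 had no match in the transcripts searched, and neither had Epas1. No match says only that these letters were not found, since one isoform of Slc11a2 and Epas1 are known to carry an IRE. Of the 3 genes among the 9 with a match in the 5′UTR, Ftl1 and Slc40a1 rose under TMM scaling and Fth1 did not pass the test, whereas after quantile normalization all 3 passed as higher.

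Fth1, on chr19:9980598-9985098 (plus strand), encodes the heavy subunit of ferritin, which oxidizes iron as it is stored. Its level was 2620, 2368 and 2455 CPM in the WT mice and 1910, 2564 and 1882 CPM in the KO mice. KO replicates 1 and 3 were below all WT mice, and KO replicate 2 lay between WT replicates 1 and 3. The change was -0.23 on the log2 scale (SE 0.16, 95% interval -0.58 to 0.13, adjusted p = 0.266 by edgeR). This call and its direction depended on the scaling and on 1 mouse. Scaled by library size alone, Fth1 was at 0.19 (adjusted p = 0.305 by edgeR), and after quantile normalization it was higher in KO, at 0.61 (adjusted p = 0.00386 by limma). Without KO replicate 2 it was lower, at -0.39 (adjusted p = 0.0267 by edgeR). That mouse also had the highest summed macrophage markers, 3648 CPM, and their part in the level of Fth1 was not tested.

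Ftl1, on chr7:45457944-45459884 (minus strand), encodes the light subunit of ferritin, which helps iron to form its mineral core. Its level was 461, 410 and 517 CPM in the WT mice and 706, 1059 and 661 CPM in the KO mice. All KO mice were above all WT mice, and KO replicate 2 was the highest. Ftl1 rose by a log2 fold change of 0.80 (SE 0.19, 95% interval 0.38 to 1.23, adjusted p = 0.00675 by edgeR), from 463 ± 53.5 to 808 ± 218 CPM (mean ± SD, 3 mice each), which is 1.75-fold. Without KO replicate 2 the change was 0.56, and after quantile normalization it was 1.31. Reads of Ftl1 may be shared with its copies. Of 426 windows of 75 bases in the last 500 bases of its transcript, 290 (68.1%) also occurred in annotated pseudogenes such as Ftl1-ps1 and Ftl1-ps2, none of which had a row in the tables, whereas 33 windows (7.75%) of Fth1 were so shared.

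The balance of the ferritin transcripts separated the mice of the genotypes. The ratio of Fth1 to Ftl1 counts within a library does not depend on how libraries are scaled. It was 5.69, 5.77 and 4.75 in the WT mice and 2.71, 2.42 and 2.85 in the KO mice. No KO mouse reached the lowest WT ratio. The difference was -1.02 on the log2 scale (log2 ratio 2.43 ± 0.16 in WT and 1.41 ± 0.12 in KO, mean ± SD). A two-sided exact permutation test over the mice gave p = 0.1, the smallest that 3 mice against 3 allow, and 0.4 after Benjamini-Hochberg adjustment over the 4 ratios tested. Without any 1 of the mice the difference stayed between -1.11 and -0.95. Macrophage markers were higher in the same mice, and their part in the change of ferritin transcripts was not tested.

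Among the other genes of ferritin turnover, Ncoa4, the receptor that brings ferritin to the lysosome, was lower in KO, at 45.5 CPM in WT and 25.4 CPM in KO (log2 fold change -0.85, adjusted p = 0.00901 by edgeR). Its call was lost with library size alone (-0.43, adjusted p = 0.0965 by edgeR) and without WT replicate 2 and KO replicate 3 together (-0.76, adjusted p = 0.0841 by edgeR). Pcbp2, an iron chaperone that can deliver iron to ferritin, was lower by a small margin (log2 fold change -0.33, adjusted p = 0.0209 by edgeR), and its call was lost without WT replicate 1 or 2 or KO replicate 1 or 3. With library size alone Pcbp2 was at 0.088 and with quantile normalization at 0.029, so its direction turned with the scaling. Pcbp1, which shares that role, was at 214 CPM in WT and 221 CPM in KO (log2 fold change 0.04, adjusted p = 0.776 by edgeR), but passed as higher with library size alone, at 0.46 (adjusted p = 0.00579 by edgeR), and after quantile normalization, at 0.33 (adjusted p = 0.0239 by limma). Ftmt, mitochondrial ferritin, had 1 count in 1 WT mouse and none in the others.

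Tfrc, on chr16:32608920-32632794 (plus strand), encodes the transferrin receptor, through which transferrin-bound iron is taken up. Its level was 34.3, 36.1 and 94.8 CPM in the WT mice and 48.6, 43.1 and 46.3 CPM in the KO mice. WT replicate 3 stood above all other mice, WT replicates 1 and 2 stood below all KO mice, and the genotypes overlapped. Tfrc changed by -0.25 on the log2 scale (SE 0.34, 95% interval -1.02 to 0.52, adjusted p = 0.577 by edgeR), an interval that covers changes of about 2-fold lower as well as increases. Without WT replicate 3 the direction turned, and Tfrc was higher in KO at 0.37 (adjusted p = 0.0419 by edgeR). With library size alone it was at 0.17, so the sign of the change was not settled by these mice. The ratio of Tfrc to Fth1 counts, 0.0131, 0.0152 and 0.0386 in WT and 0.0255, 0.0168 and 0.0246 in KO, overlapped as well (exact permutation p = 0.8, adjusted 0.9, two-sided).

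Slc11a2, on chr15:100387898-100425072 (minus strand), encodes DMT1, which carries ferrous iron across the endosomal and plasma membranes. It was at 47.5, 56.0 and 36.2 CPM in the WT mice and at 24.1, 21.5 and 22.4 CPM in the KO mice. Every KO mouse was below every WT mouse, and the KO mice lay closer together than the WT mice. Slc11a2 fell by 1.04 on the log2 scale (SE 0.17, 95% interval -1.42 to -0.66, adjusted p = 0.00103 by edgeR), from 46.6 ± 9.94 to 22.7 ± 1.33 CPM (mean ± SD). It was the one gene of the 9 that passed with a change of at least 2-fold, and it kept its direction and call under all 16 alternatives. Slc11a2 lies 43950 bases from Letmd1, the targeted gene, on the same chromosome.

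Slc40a1, on chr1:45908068-45926523 (minus strand), encodes ferroportin, the iron exporter. Its level was 27.1, 26.9 and 23.1 CPM in the WT mice and 41.2, 41.5 and 56.6 CPM in the KO mice. All KO mice were higher than all WT mice, with KO replicate 3 the highest. Slc40a1 rose by 0.86 on the log2 scale (SE 0.16, 95% interval 0.49 to 1.22, adjusted p = 0.00225 by edgeR), from 25.7 ± 2.29 to 46.4 ± 8.83 CPM (mean ± SD), or 1.81-fold. The increase was 1.28 with library size alone and 0.86 after quantile normalization, and passed the test in each. Macrophages, which recycle iron from red cells, are known to express ferroportin. The macrophage markers rose in the same mice, from a mean of 228 to 2295 CPM in sum. Among the KO mice, replicate 3 had the highest Slc40a1 and the lowest macrophage sum, 1500 CPM, against 1738 CPM in KO replicate 1. KO replicate 2 had the highest macrophage sum, 3648 CPM, and Slc40a1 at 41.5 CPM. The order of KO replicates 1 and 3 differed by marker. Lgals3 was at 590 CPM in KO replicate 1 and 308 CPM in KO replicate 3. Csf1r was at 122 and 173 CPM and C1qa at 170 and 209 CPM in these mice. The part of macrophages in the rise of Slc40a1 was not tested.

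Of the 11 tested genes of iron uptake and reduction, Tfrc and Slc11a2 included, 4 were higher and 2 lower, with a median log2 fold change of -0.25. Without Tfrc and Slc11a2, 4 of 9 were higher and 1 lower, with a median of 0.34. Lcn2, which encodes lipocalin 2, a protein that binds iron-loaded bacterial siderophores, had 11, 9 and 12 counts in the WT mice and 481, 183 and 590 in the KO mice (log2 fold change 4.92, adjusted p = 1.29e-05 by edgeR). Trf, which encodes transferrin, rose from 36.2 to 159 CPM (log2 fold change 2.13, adjusted p = 0.0013 by edgeR). Its level in KO replicate 2, the mouse with the highest summed macrophage markers, was 275 CPM, against 104 and 98.4 CPM in KO replicates 1 and 3. Without that mouse Trf was still higher, at 1.48 (adjusted p = 3.26e-05 by edgeR). The part of macrophages in the rise of Trf was not tested. Steap1, of the STEAP family of metalloreductases, was higher at 1.34 and Slc39a8, a zinc and iron importer, lower at -1.30, both from levels of under 6 CPM. The call of Steap1 was lost without KO replicate 1 or 3 and after quantile normalization. That of Slc39a8 was lost without WT replicate 1 or 3 or KO replicate 1 or 3, and with library size alone. It was also lost when the replicate number was part of the fit. Both calls were lost without WT replicate 2 and KO replicate 3 together.

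Of the tested genes of iron export and the hepcidin axis, 4 of 5 were higher and none lower, with a median log2 fold change of 1.21. Beside Slc40a1 these were Cp, ceruloplasmin, a ferroxidase that works with ferroportin (51.0 CPM in WT, 188 CPM in KO, log2 fold change 1.89), Heph, the related ferroxidase hephaestin (1.21), and Hfe, the hemochromatosis protein (1.52), with adjusted p of 0.00022, 0.00156 and 2.58e-05 by edgeR. Hfe2, which encodes hemojuvelin and is also expressed in skeletal muscle, had 1, 27 and 4 counts in WT and 14, 7 and 62 in KO (log2 fold change 0.85, adjusted p = 0.449 by edgeR), with the highest value of each genotype in the mouse with the most muscle transcripts. Without WT replicate 2 it passed as higher, at 2.77, and without KO replicate 3 it was at 0.07. The 12 tested macrophage markers were higher in the same KO mice, with a median of 2.72, and their part in the rise of Cp, Heph and Hfe was not tested. Hamp, the gene of hepcidin, had 0 counts in every mouse, and it and 4 other genes of the list were left out of the test by the filter on low counts.

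Both iron regulatory proteins were measured. Aco1, whose product is cytosolic aconitase when it holds an iron-sulfur cluster and iron regulatory protein 1 when it does not, fell from 152 to 70.3 CPM (log2 fold change -1.12, adjusted p = 4.87e-05 by edgeR). Ireb2, iron regulatory protein 2, was at 36.7 CPM in WT and 34.1 CPM in KO (log2 fold change -0.11, adjusted p = 0.528 by edgeR), with its sign turned at 0.31 when library size alone was used. Epas1, the hypoxia factor HIF-2α whose mRNA is known to carry an IRE, was lower at -1.18 (adjusted p = 3.95e-05 by edgeR). Hif1a and Fbxl5, the latter an iron-sensing part of a ubiquitin ligase, were at 0.29 and 0.15 and did not pass, but with library size alone they passed as higher, at 0.71 and 0.57 (adjusted p = 0.00384 and 0.0101 by edgeR).

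**Figure D2:**
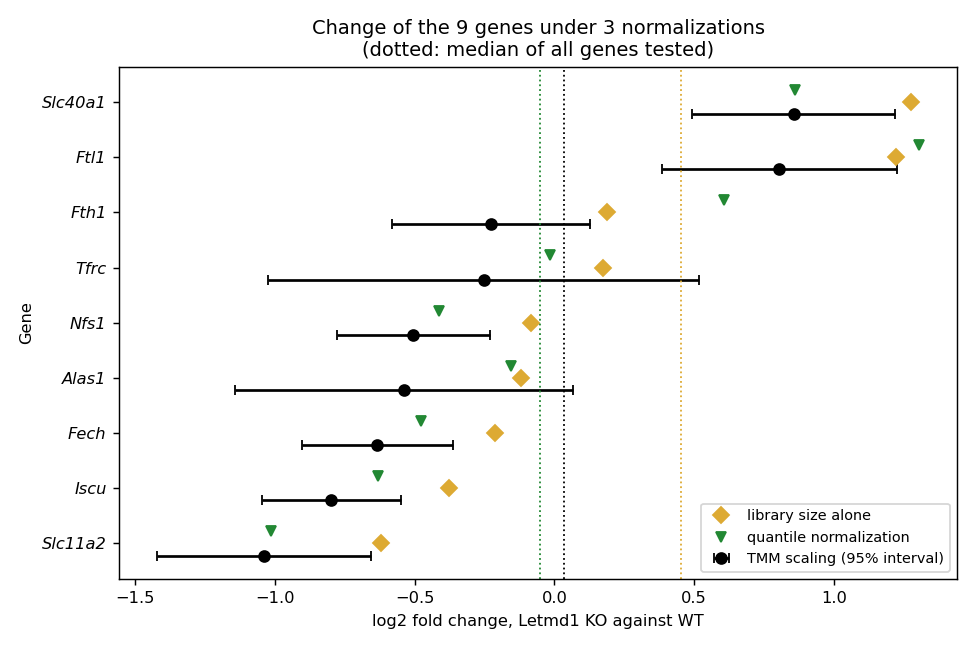
Log2 fold change of Letmd1 KO against WT (horizontal axis) of the 9 genes (vertical axis) under TMM scaling with its 95% interval (black), under scaling by library size alone (yellow) and after quantile normalization (green); dotted lines give the median of all genes tested under each. Ftl1 and Slc40a1 lie to the right and Slc11a2, Iscu, Fech and Nfs1 to the left of the median under each scaling, whereas Fth1 moves from -0.23 to 0.61.

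Alas1, on chr9:106233455-106248654 (minus strand), encodes the enzyme that starts heme synthesis and sets its rate in most tissues. Its level was 183, 350 and 442 CPM in the WT mice and 188, 238 and 245 CPM in the KO mice. The WT mice spread more than 2-fold, WT replicate 1 lay below all KO mice, and the genotypes overlapped. The change was -0.54 on the log2 scale (SE 0.27, 95% interval -1.14 to 0.07, adjusted p = 0.132 by edgeR). Without WT replicate 1, Alas1 passed as lower, at -0.83 (adjusted p = 0.00528 by edgeR). With single mice left out, the change was between -0.83 and -0.26. With library size alone it was at -0.12 (adjusted p = 0.723 by edgeR), and after quantile normalization at -0.16 (adjusted p = 0.654 by limma).

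Fech, on chr18:64452914-64490251 (minus strand), encodes ferrochelatase, the enzyme that puts iron into protoporphyrin at the last step, and which itself holds an iron-sulfur cluster. It was at 109, 104 and 108 CPM in the WT mice and at 60.3, 67.4 and 79.1 CPM in the KO mice. The WT mice lay close together, and every KO mouse was below them. Fech fell by 0.63 on the log2 scale (SE 0.12, 95% interval -0.90 to -0.36, adjusted p = 0.00236 by edgeR), a drop of the mean from 107 ± 2.63 to 68.9 ± 9.49 CPM. Scaled by library size alone, the change was -0.21 and no longer passed (adjusted p = 0.165 by edgeR). That scaling shifted all genes by nearly the same amount and moved their median from 0.03 to 0.45. The value of Fech relative to the median, -0.67 under both, is therefore no separate check. After quantile normalization Fech was at -0.48 (adjusted p = 0.0109 by limma), and relative to the median at -0.43. The ratio of Alas1 to Fech counts was 1.68, 3.36 and 4.08 in WT and 3.12, 3.53 and 3.10 in KO, so the ratios of the KO mice fell within the range of the WT mice (exact permutation p = 0.9, adjusted 0.9, two-sided).

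Of the 13 tested genes of heme synthesis, 8 were lower and none higher, with a median log2 fold change of -0.64. Tmem14c, a porphyrin carrier of the inner mitochondrial membrane, fell from 747 to 345 CPM (log2 fold change -1.11). Abcb6, a porphyrin transporter, was at -0.92 and Ppox, the protoporphyrinogen oxidase, at -0.84, with adjusted p of 0.000276, 0.00246 and 0.0146 in that order by edgeR. The call of Ppox was lost without KO replicate 1 and without WT replicate 2 and KO replicate 3 together. It was also lost with library size alone (-0.42, adjusted p = 0.146 by edgeR). Scaled by library size alone, 2 of the 13 were lower and 1 higher, and after quantile normalization 9 were lower. Brown adipocyte markers were lower in the same mice (9 of 12, median -1.42), and their part in the lower heme synthesis transcripts was not tested. Red cell transcripts bear on this list, since Alas2 is the erythroid form of the enzyme: the summed erythroid markers, led by Hba-a1 and Hbb-bs, ranged from 9921 to 18451 CPM in WT and from 9970 to 13621 CPM in KO, and none of the 5 tested passed the test in either direction. This leaves out the rows Hbb-b1 and Hbb-b2, whose counts were close to those of Hbb-bs and Hbb-bt in every mouse and may be the same reads, and which did not pass either. Among the markers with a row, none was at 0 in all mice.

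For heme breakdown, transport and binding, 3 of 9 tested genes were higher and 3 lower (median 0.14), against 5 higher and none lower with library size alone. Hmox1, heme oxygenase 1, rose from 3.56 to 11.4 CPM (log2 fold change 1.64, adjusted p = 0.0153 by edgeR), a call lost without WT replicate 2, while without WT replicate 1 the change was 2.39. Cd163, the hemoglobin scavenger receptor of macrophages, was higher at 0.64 and Lrp1, a receptor for heme bound to hemopexin, at 0.58, and each lost its call without single mice (Cd163 without WT replicate 1 or 3 or KO replicate 2 or 3, Lrp1 without WT replicate 2 or 3 or KO replicate 2). Slc46a1, a folate carrier that can also move heme, fell from 11.5 to 5.67 CPM (adjusted p = 0.00853 by edgeR), and with library size alone its call was lost (-0.58, adjusted p = 0.0672 by edgeR).

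Nfs1, on chr2:156123639-156144186 (minus strand), encodes the cysteine desulfurase that supplies sulfur for clusters. Its level was 53.7, 61.1 and 65.2 CPM in the WT mice and 45.3, 40.1 and 41.5 CPM in the KO mice. All KO mice were below all WT mice, by a narrow gap between WT replicate 1 and KO replicate 1. Nfs1 fell by 0.50 on the log2 scale (SE 0.12, 95% interval -0.78 to -0.23, adjusted p = 0.00821 by edgeR), from 60.0 ± 5.83 to 42.3 ± 2.73 CPM (mean ± SD). With library size alone it was at -0.085 and did not pass (adjusted p = 0.594 by edgeR). Relative to the median of all genes Nfs1 was at -0.54 under either scaling, which follows from the near-equal shift of all genes. After quantile normalization it was at -0.41 (adjusted p = 0.0227 by limma), and relative to the median at -0.36. The gene model Gm28036 covers the 3′ end of Nfs1 on the same strand and has no row of its own in the tables.

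Iscu, on chr5:113772748-113778288 (plus strand), encodes the scaffold on which clusters are first built. It was at 136, 140.0 and 130.5 CPM in the WT mice and at 76.0, 70.8 and 86.8 CPM in the KO mice. The WT mice lay within a narrow range and every KO mouse was well below it. Iscu fell by 0.80 on the log2 scale (SE 0.11, 95% interval -1.05 to -0.55, adjusted p = 0.000396 by edgeR), from 136 ± 4.80 to 77.9 ± 8.15 CPM (mean ± SD), and passed as lower under all 3 scalings. The ratio of Iscu to Nfs1 counts was 2.54, 2.29 and 2 in WT and 1.68, 1.77 and 2.09 in KO. KO replicate 3 overlapped the WT mice, and the difference of -0.30 on the log2 scale did not pass (exact permutation p = 0.2, adjusted 0.4, two-sided).

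**Figure D3:**
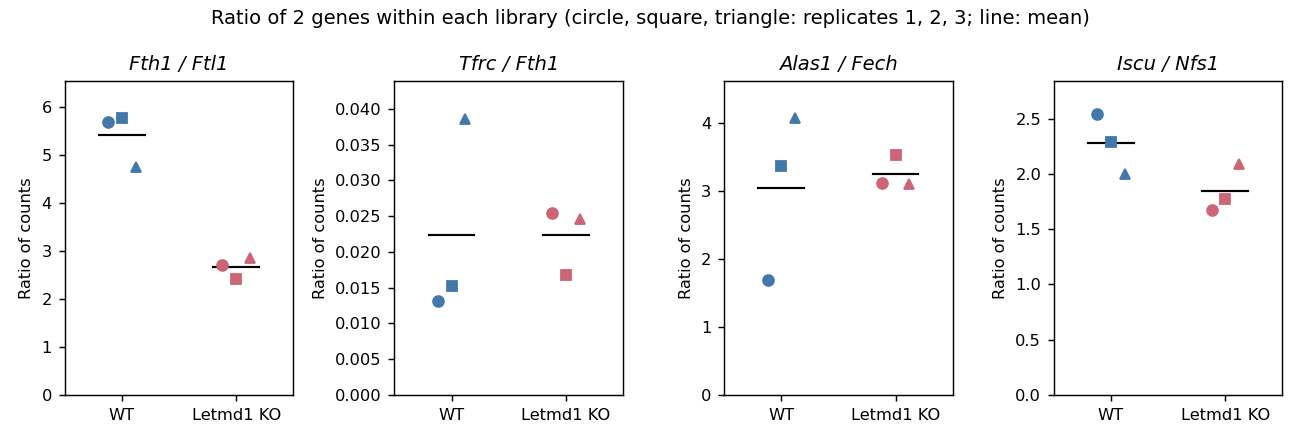
Ratio of the counts of 2 genes within each library (vertical axes, from 0) in the 3 WT and 3 Letmd1 KO mice; symbols mark the replicate and lines the mean. The ratio of Fth1 to Ftl1 is between 4.75 and 5.77 in WT and between 2.42 and 2.85 in KO, and the other 3 ratios overlap between genotypes.

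Of the tested genes of early cluster assembly in mitochondria, 8 of 12 were lower and 1 higher (median -0.63). Ndufab1, the acyl carrier protein that binds the desulfurase complex, fell from 164 to 68.6 CPM (log2 fold change -1.25). Fdx1, a ferredoxin, was at -0.91 and Glrx5, the glutaredoxin that carries clusters onward, at -0.83, with adjusted p between 3.23e-05 and 0.000224 by edgeR. Hspa9, a chaperone with many other clients, was the one gene of the list that passed as higher (log2 fold change 0.51, adjusted p = 0.0199 by edgeR). It was named for this after its value was seen. Its call was lost without WT replicate 1 or 2 or KO replicate 1. It was also lost without WT replicate 2 and KO replicate 3 together. With library size alone, 6 of the 12 were lower and 2 higher.

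Late cluster assembly, which makes 4Fe-4S clusters for mitochondrial enzymes, had 5 of 7 tested genes lower and none higher (median -0.86). Isca1 fell from 210 to 76.5 CPM (log2 fold change -1.45), Bola3 from 484 to 185 CPM (-1.39), Isca2 from 204 to 80.7 CPM (-1.33) and Iba57 from 78.1 to 42.8 CPM (-0.86), with adjusted p between 1.1e-05 and 0.000565 by edgeR. Each of the 4 passed as lower under every alternative of scaling, filter and left-out mice. With library size alone 4 of the 7 genes were lower and with quantile normalization 6. For the early and the late list alike, the brown adipocyte markers were lower in the same mice, from a mean of 45591 to 14748 CPM in sum, and their part was not tested.

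For cluster assembly in the cytosol, 7 of 10 tested genes did not pass, 2 were lower and 1 was higher (median -0.06), and with library size alone 1 was lower and 5 were higher (median 0.36). Fam96a, which serves the maturation of iron regulatory protein 1, was lower at -1.15 (adjusted p = 6.16e-05 by edgeR) and Bola2 higher at 0.70 (adjusted p = 0.00135 by edgeR). Ciao1, a part of the targeting complex, was lower at -0.39 (adjusted p = 0.0387 by edgeR). This call was lost without WT replicate 1 or 2 or KO replicate 1 or 2, and after quantile normalization (-0.35, adjusted p = 0.0574 by limma). The sign of Ciao1 turned, at 0.024, with library size alone. Whether the cytosolic and mitochondrial lists differ was not tested.

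Transcripts of proteins that hold the cofactors were lower in KO BAT. All 12 tested genes of mitochondrial proteins with iron-sulfur clusters were lower (median -1.10), also with library size alone, and 11 of the 12 after quantile normalization. Etfdh, which passes electrons from fatty acid oxidation to ubiquinone, fell from 455 to 142 CPM (log2 fold change -1.68), Cisd1, mitoNEET, from 416 to 155 CPM (-1.42) and Uqcrfs1, the Rieske protein of complex III, from 1975 to 742 CPM (-1.41), with adjusted p between 8.81e-06 and 6.85e-05 by edgeR. Of 8 tested genes of heme attachment and mitochondrial heme proteins, 6 were lower and none higher (median -1.06), led by Suox, sulfite oxidase, which fell from 42.4 to 7.06 CPM (-2.61). Sdhd and Sdhc, the membrane subunits of complex II that hold its heme, were at -1.43 and -1.08, and Cycs, cytochrome c, was at -1.32, with adjusted p between 9.88e-06 and 0.00363 by edgeR across these 4 genes. The brown adipocyte markers were lower in the same mice, with a median of -1.42, and their part in these decreases was not tested.

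Over the 12 lists, 103 of 114 distinct genes were tested, and 52 were lower, 15 higher and 36 not passed, with a median log2 fold change of -0.50. This split depended on the scaling, with 35 lower and 30 higher under library size alone and 52 lower and 18 higher after quantile normalization. Under TMM scaling, the share of the 103 that passed was 65.0%, beside 46.0% of all genes tested. With library size alone 65 of the 103 passed, beside 7262 of all 12995 genes. After quantile normalization these counts were 70 and 5791. The lists were chosen with earlier results of these data known, so these shares only describe them. Flvcr1 and Flvcr2 matched no row, and Glrx3 had 0 counts in every mouse.

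**Figure D4:**
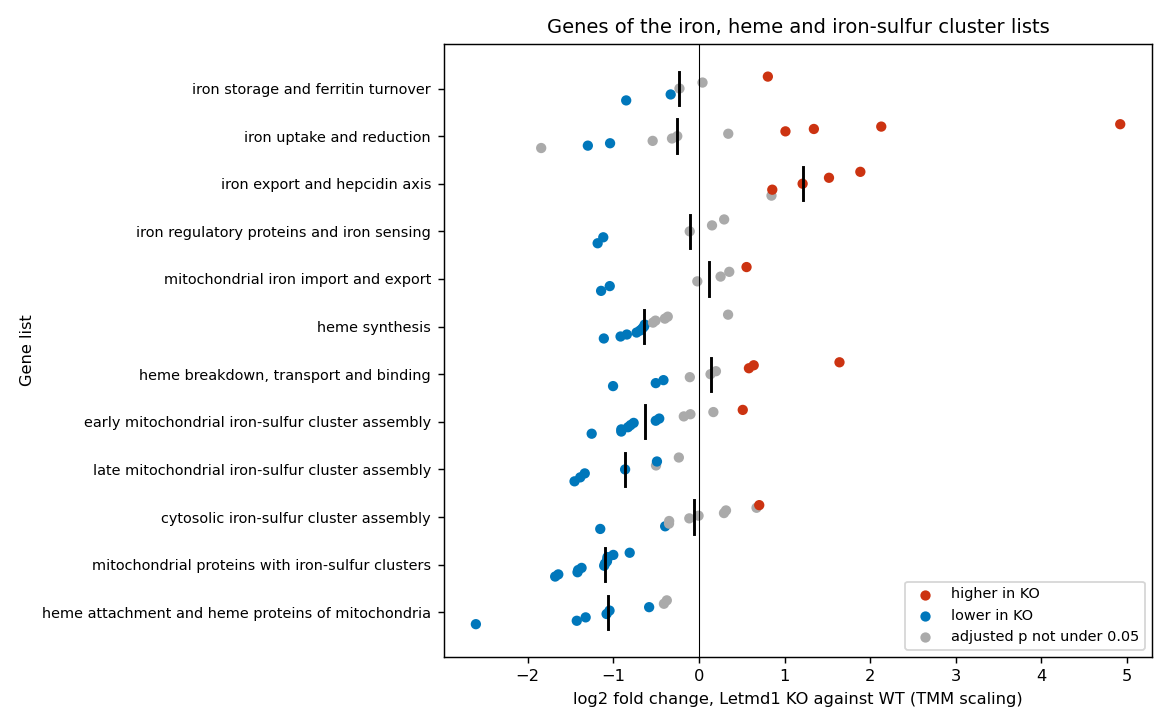
Log2 fold change of Letmd1 KO against WT under TMM scaling (horizontal axis) for each tested gene (point) of the 12 lists (vertical axis); red points passed the test as higher, blue as lower, grey did not pass, and black bars give the median of the list. Most points of heme synthesis and mitochondrial iron-sulfur clusters lie left of 0, all 5 of export lie right of 0, and storage, uptake and cytosolic assembly hold points on both sides.

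Iron import into and export from mitochondria was split, with Abcb10 and Abcb8, transporters of the inner membrane, lower at -1.14 and -1.04 (adjusted p = 0.000189 and 0.000215 by edgeR). Slc25a37, mitoferrin 1, was higher at 0.56 (adjusted p = 0.0228 by edgeR), a call lost without WT replicate 2 or 3 or KO replicate 3. The other 3 genes of this list did not pass. With library size alone 4 of the 6 genes were higher and 2 lower, and after quantile normalization 3 were higher and 2 lower.

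In the order of their levels in WT BAT, Fth1 was far above Ftl1, followed by Alas1, Iscu, Fech, Nfs1, Tfrc, Slc11a2 and Slc40a1. Ftl1 and Alas1 overlapped over the WT mice, as did Nfs1, Tfrc and Slc11a2, while Iscu and Fech did not. In KO BAT Slc11a2 was the lowest, and Slc40a1, Tfrc and Nfs1 lay between 40.1 and 56.6 CPM with overlap. Iscu and Fech overlapped there.

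Patterns over the 6 mice were compared by the root-mean-square distance of log2(CPM + 1) after centring each gene on its own mean. This is a description, since the 6 mice fall into 2 genotypes and genes that differ between them in the same direction lie close together. Among the 9 genes, Fech and Iscu were the closest pair, at 0.12 log2 units, and Ftl1 and Slc11a2 the most distant, at 0.96. Of 11922 other genes, the nearest to Fech were Polr2i and Mrpl28, to Iscu Fastk and Pgam1, and to Nfs1 Dicer1 and Arhgef12, at distances from 0.029 to 0.046. The nearest to Ftl1 were Ptgr1 (0.040) and Tpd52 (0.047), and those to Fth1 were Tap2 (0.046) and Sult1a1 (0.052). Slc40a1 was nearest to Gstm2 and Ermp1, and Slc11a2 to Atad3a and Zfp654, all between 0.090 and 0.10. Tfrc, with its single high WT mouse, was nearest to Srebf1 (0.084) and Grhl1 (0.099), and Alas1 to Phyhipl (0.072) and Fzd8 (0.11).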

How the data were processed

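QuantSeq 3′ libraries of interscapular BAT total RNA from 3 WT and 3 Letmd1 KO mice were sequenced on a NextSeq 500 as single-end reads. The authors aligned the reads with Bowtie2 and counted them per gene with bedtools, keeping unique and multiple alignments, and deposited whole-number counts without normalization, 1 table per mouse. The submitters' processing notes name mm10. Tool versions, annotation, use of strand and the treatment of reads that fit several genes are not given in the sources used here, so near-identical genes (Ftl1 and its pseudogenes) may share counts. The quantile normalization named by the study is not in these counts and was applied as an alternative.

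Totals were between 6669577 and 14574273 counts per mouse, so that a floor of 3 counts is between 0.176 and 0.397 CPM, for counting error only. Between any pair of mice of 1 genotype, the chi-square of the counts divided by its degrees of freedom was 12.1 to 36.3, above sampling noise, and none was counted as a repeat. Samples were grouped by the genotype in their labels. Of 23282 rows, 12995 passed edgeR's default filter (minimum count 10, minimum total 15) and were tested in R 4.3.3 with edgeR 4.0.16 (quasi-likelihood test, TMM scaling, Benjamini-Hochberg over all genes, threshold 0.05). Ratios of counts, with 0.5 added, were tested over mice by exact permutation (two-sided). Fits were tested on simulated counts. Alternatives were scaling by library size alone, DESeq2 size factors, quantile normalization with limma 3.58.1, DESeq2 1.42.0, no filter, a mean of at least 50 counts, a replicate block, an adjusted p under 0.01, a 2-fold change, each mouse left out and, added after the data were seen, WT replicate 2 and KO replicate 3 left out together.

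The 9 genes and all lists were chosen with earlier results of these data known. Genes named are the 9, Letmd1, up to 4 genes of each list with the largest change past the threshold, all genes of lists with fewer than 6 tested, the 3 most abundant markers of each cell type, and the 2 genes nearest to each of the 9 (mean of at least 20 counts). The erythroid sum leaves out Hbb-b1 and Hbb-b2, a choice made after their counts were seen. A few genes of the lists are counted but not reported here by name. Positions and sites came from GENCODE vM21 on GRCm38, which is mm10.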

Additional observations from a re-analysis of the deposited data

How the results depend on the processing

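Of 55 genes chosen by the naming rule, 24 kept direction and call under every alternative run on them (up to 16), 25 kept direction with another call under at least 1, and 6 turned. Under library size alone Fth1 was at 0.19, Tfrc at 0.17, Pcbp2 at 0.088, Ireb2 at 0.31 and Ciao1 at 0.024, and under quantile normalization Fth1 was at 0.61 and Pcbp2 at 0.029. With single mice left out, Tfrc was between -0.51 and 0.37 (the latter without WT replicate 3) and Pcbp1 between -0.013 and 0.11 (-0.0091 without WT replicate 2, -0.013 without WT replicate 3), and Pcbp1 was at -0.012 without WT replicate 2 and KO replicate 3 together. With each mouse left out in turn, the count of genes past the threshold was between 4842 and 5868, against 5979 with all mice, that of the 9 genes between 6 and 7, that of list genes between 59 and 67, and the log2 differences of ratios were between -1.11 and -0.95 for Fth1 to Ftl1, between -0.15 and 0.63 for Tfrc to Fth1 (-0.15 without WT replicate 1, -0.038 without WT replicate 2), between -0.19 and 0.45 for Alas1 to Fech (-0.19 without WT replicate 1) and between -0.40 and -0.22 for Iscu to Nfs1. With an adjusted p under 0.01, 3939 genes passed; with an adjusted p under 0.05 and at least a 2-fold change, 3048 genes, 1 of the 9 (Slc11a2) and 37 of 67 list genes; and without WT replicate 2 and KO replicate 3, 3889 genes, with fewer mice by construction, and 5 of the 9 (Nfs1 did not pass). Library size alone gave 1371 lower and 5891 higher genes (81.1% of calls higher, against 51.5%) and, of the 9, 2 lower and 2 higher. Same-numbered WT and KO mice did not deviate together (correlations 0.08, -0.10 and -0.09). The largest correlation, 0.20, was between WT replicate 2 and KO replicate 3, the mice of each genotype with the most muscle transcripts. With 3 mice per genotype these values cannot exclude a pairing or a shared batch, and the main fit used no pairing. A fit with the replicate block gave 2713 lower and 2886 higher genes and the same calls for the 9 genes. A sum of ferritin rows with their copies was not run, since no copy had a row with counts. Levels near the floor, such as Slc39a8 and Hfe2, are limited by depth.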
